A study of Homo sapiens with 6 samples.

Results

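Keratins and claudins are the 2 gene families by which the epithelial state of a cell is most often read, and 64 genes of them (44 keratins and 20 claudins) were measured among the 19775 genes of these arrays. The members are the genes whose annotated symbol is KRT or CLDN followed by a number, without keratin-associated proteins and pseudogenes, each read by its probe set with the highest mean signal over all 6 arrays. Of the 79 protein-coding keratins and claudins in RefSeq, 64 had a probe set of their own in the annotation used here. That annotation gives no symbol for 11777 probe sets, so a gene without one here may still be on the array. The other 15 were not analysed here beyond probe sets they share, and they are CLDN22, CLDN24, CLDN25, CLDN34, KRT17, KRT26, KRT28, KRT34, KRT39, KRT6A, KRT6B, KRT6C, KRT81, KRT82 and KRT86.

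The 6 arrays are Affymetrix HG-U133 Plus 2.0 arrays of 1833 cells, a bone-seeking subline of the human breast cancer line MDA-MB-231. Of these, 3 are controls, which the series describes as vector control, and 3 are cells labelled as transduced with a lentiviral vector for S153E-RKIP, a mutant of the Raf-1 inhibitor RKIP, and kept in 0.5 µg/ml puromycin. The comparison asks which genes RKIP controls in these cells. In its title each array is termed a biological replicate, but nothing in the labels says that these came from separate cultures. A p-value here therefore covers only the scatter among the 3 samples of a group, technical scatter included, and that number sets the precision.

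Keratins build the intermediate filaments of epithelial cells. A filament needs a type I and a type II keratin in equal amount, and which pair a cell makes depends on its tissue: KRT8 and KRT18 in simple epithelia, KRT5 and KRT14 in basal cells, and others in skin, hair and nail. Claudins are membrane proteins that seal tight junctions or form ion channels in them. MDA-MB-231 is a line of the claudin-low type of breast cancer, named for low CLDN3, CLDN4 and CLDN7, with a mesenchymal shape.

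Of the 64 members, CLDN1 and KRT33B rose and KRT19 fell on the arrays labelled S153E-RKIP (limma, adjusted p under 0.05 over all genes), which is 4.69% of the members beside 1.9% of all genes. By direction, 2 members were called higher, where 0.688% of all genes were, and 1 lower, where 1.21% of all genes were. CLDN1, a barrier-forming claudin, rose 2.33-fold. KRT19, the type I keratin of simple epithelia that lacks the usual tail, fell 1.40-fold. KRT33B, a hair shaft keratin, rose 1.29-fold at a dim signal. The other 61 members did not pass the test.

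The bases upstream of the start of transcription are shown for CLDN1 and KRT33B, the called members that the RefSeq promoter table holds, and for KRT8 and CLDN4, which had an unadjusted p under 0.05 with a difference below 0. Each is the 250 bases before the start, 5' to 3' on the gene's strand, from RefSeq on GRCh38.p14. Capitals mark CAGGTG (the E-box that SNAI2 and its relatives bind), TGANTCA (AP-1), GGGCGG (SP1 type) and the NF-kB motif, searched on both strands. CLDN1 lies at chr3:190322447-190322696 on the minus strand, KRT33B at chr17:41369814-41370063 on the minus strand, KRT8 at chr12:52926470-52926719 on the minus strand and CLDN4 at chr7:73830746-73830995 on the plus strand.
CLDN1: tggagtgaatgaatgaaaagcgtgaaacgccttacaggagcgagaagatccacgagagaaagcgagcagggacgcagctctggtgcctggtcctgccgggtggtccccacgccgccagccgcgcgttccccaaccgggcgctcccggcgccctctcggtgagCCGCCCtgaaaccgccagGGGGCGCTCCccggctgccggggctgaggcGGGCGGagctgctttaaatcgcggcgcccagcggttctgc
KRT33B: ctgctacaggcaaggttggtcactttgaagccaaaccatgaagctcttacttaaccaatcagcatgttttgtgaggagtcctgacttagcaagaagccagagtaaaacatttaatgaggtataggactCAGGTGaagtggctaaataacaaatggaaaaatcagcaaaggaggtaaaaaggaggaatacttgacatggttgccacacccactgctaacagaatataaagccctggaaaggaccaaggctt
KRT8: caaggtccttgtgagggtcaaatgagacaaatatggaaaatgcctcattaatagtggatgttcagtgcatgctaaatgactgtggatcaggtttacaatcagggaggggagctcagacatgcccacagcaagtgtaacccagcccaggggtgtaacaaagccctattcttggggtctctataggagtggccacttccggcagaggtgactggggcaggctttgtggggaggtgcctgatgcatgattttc
CLDN4: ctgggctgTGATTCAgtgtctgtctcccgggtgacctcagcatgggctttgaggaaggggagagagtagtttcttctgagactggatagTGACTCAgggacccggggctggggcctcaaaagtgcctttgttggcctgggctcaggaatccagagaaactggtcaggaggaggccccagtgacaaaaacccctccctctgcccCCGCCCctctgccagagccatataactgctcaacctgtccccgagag

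The CLDN1 stretch holds 2 GGGCGG matches and 1 NF-kB match, and 68.8% of its bases are G or C, beside a median of 58.0% over the 35116 promoters of the table. KRT33B, with 42.4% G or C, holds 1 CAGGTG match. CLDN4 holds 2 TGANTCA matches and 1 GGGCGG match, and KRT8 holds none of the 4 motifs in this window. Over all promoters 17.5% hold CAGGTG, 6.57% TGANTCA, 42.6% GGGCGG and 9.96% the NF-kB motif, and over the 56 promoters of the 44 members in the table the shares are 12.5%, 7.14%, 25.0% and 3.57%. The matches are a description of letters and not of binding.

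Before the members, the labels and the arrays were checked. PEBP1, which encodes RKIP, had a signal of 11.76 ± 0.026 in control and 11.66 ± 0.064 on the arrays labelled S153E-RKIP (SD, n = 3 each; limma adjusted p = 0.473), and the files do not show whether its probe sets lie within the introduced sequence. Against their titles, the treated samples carry a source name with HMGA2 shRNA in it, and HMGA2 differed by -0.023 (adjusted p = 0.882). Every direction below therefore rests on the label. VIM, the mesenchymal filament gene, had a signal of 14.47 ± 0.016 in control, while the signals of CDH1 (E-cadherin), ESR1 and PGR were 4.14, 6.60 and 4.02, and EPCAM, an epithelial surface gene, had 8.30. The other luminal breast markers read, GATA3, MUC1 and FOXA1, had 8.16, 6.18 and 4.33 in control. The other mesenchymal markers read, CD44, AXL, ZEB1, FN1 and CDH2, had 12.23, 12.29, 10.58, 9.95 and 5.32 in control. Array S153E-RKIP replicate 1 lay apart from replicates 2 and 3 on the second principal component. Of 5 blood cell markers, the summed log2 signal was 25.7 to 25.9 in control and 26.2 to 26.8 on the labelled arrays with no marker called. All 5 had a difference above 0. PTPRC, the defining one, read 3.90, 3.89 and 3.84 in control and 3.96, 4.04 and 3.93 on the labelled arrays, and CD3E, a T cell gene, differed by 0.29 (adjusted p = 0.139). In both of these genes the groups did not overlap, as in 20.1% of all genes (9.31% with the labelled arrays higher). The 5 markers lay at or below the median signal of all genes, where 68.9% of genes had a difference above 0. Of 25 genes that are silent outside other tissues, 19 also had a difference above 0. Of 7 fibroblast and osteoblast markers and 4 endothelial ones the sums were 37.87 to 37.95 and 21.2 to 22.0 in control, and 37.90 to 38.39 and 21.2 to 22.1 on the labelled arrays. Whether these bear on the members was not tested.

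Most members had a signal at or below the median of all genes. Of the 64, 13 had a mean signal above the median of all genes (6.64 on the log2 RMA scale), 6 keratins and 7 claudins. The signals of 25 genes that are silent outside other tissues, such as albumin and crystallin genes, had means of 3.83 to 7.43 with a median of 4.74, and 51 of the members lay at or below 6.64. The range of the silent genes also takes in the means of CLDN4, CLDN6, KRT80 and KRT7, which are among the 13. Signals of different probe sets are not amounts that can be ranked, and signal over background was not measured.

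**Figure D1:**
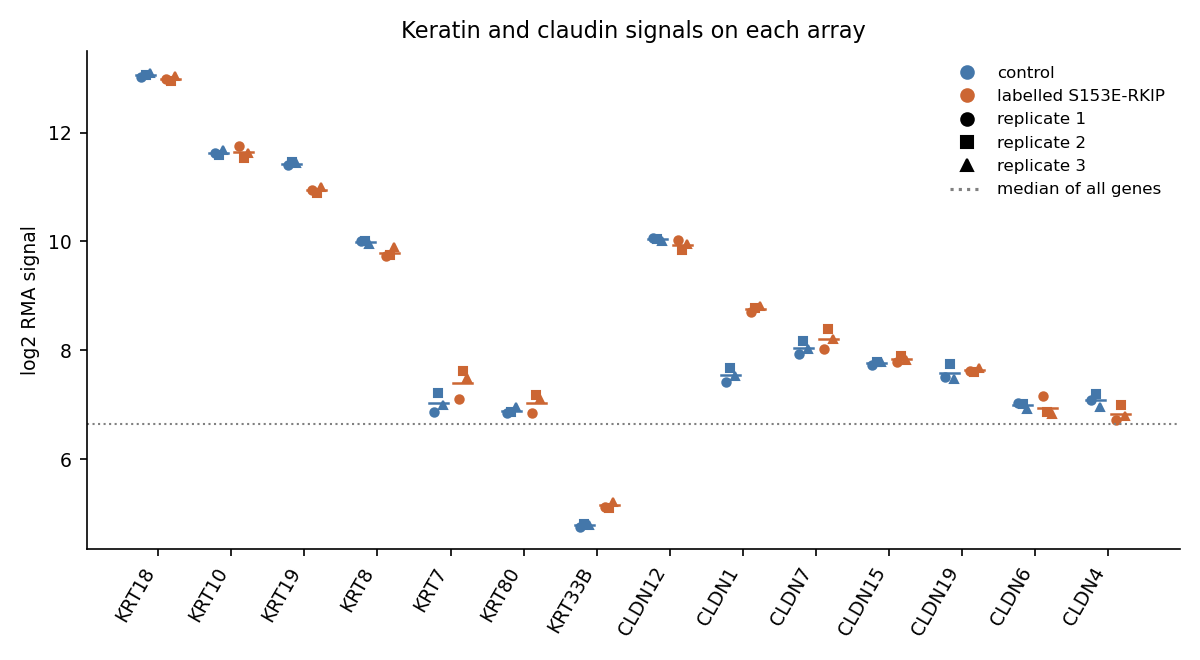
The log2 RMA signal of each array is plotted for the 13 members above the median of all genes (dotted line, 6.64) and for KRT33B, with bars at the means of the 3 arrays of a group. The 3 labelled arrays lie apart from the 3 controls for CLDN1, KRT19, KRT8 and KRT33B.

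The simple epithelial keratins were described first, since a breast epithelial cell makes them. KRT19 gave log2 signals of 11.41, 11.46 and 11.44 on the control arrays and 10.94, 10.90 and 11.004 on the labelled ones, in the order of replicates 1, 2 and 3, an order kept throughout. The groups did not overlap, and the gap between them exceeded the range within either. KRT19 thus had a log2 difference of -0.48 with SE 0.056 (95% confidence interval -0.61 to -0.36, limma adjusted p = 0.00437). With each array left out in turn it ran from -0.51 to -0.46 and stayed called. The second probe set of KRT19 read 4.71, 4.61 and 5.08 in control and 4.92 on each labelled array, a difference of 0.12 (SE 0.11, adjusted p = 0.667 over all probe sets). Its signal lies below the median of all genes, and with the mean of both probe sets KRT19 was not called (-0.18, adjusted p = 0.246).

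KRT8, the type II partner in the filaments of simple epithelia, read 10.01, 10.00 and 9.95 in control and 9.74, 9.75 and 9.89 on the labelled arrays. All 3 labelled arrays lay below all controls, but the difference of -0.19 (SE 0.063, 95% confidence interval -0.34 to -0.049) did not pass the test (adjusted p = 0.203). KRT18, its type I partner, read 13.03, 13.05 and 13.09 in control and 12.99, 12.95 and 13.03 on the labelled arrays. These groups overlapped, with a difference of -0.066 (95% confidence interval -0.19 to 0.060, adjusted p = 0.590). Both were read by probe sets that can pair with several transcripts, pseudogenes of these keratins among them, and neither has another probe set of its own here.

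Within each array, the log2 signal of KRT19 minus that of KRT18 was lower on the labelled arrays by -0.42, and that of KRT19 minus KRT8 by -0.29. In both cases the groups did not overlap (exact two-sided permutation p = 0.1 each, the smallest that 3 arrays against 3 allow, and 0.114 adjusted over the 8 pairs compared). The gap of KRT19 between the groups was wider than the full range of KRT18 or KRT8. Non-overlap in these pairs therefore followed from KRT19 itself and adds nothing to its call. KRT8 minus KRT18 differed by -0.13 with overlapping groups (exact permutation p = 0.2).

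KRT7, a type II keratin of ducts and glands, read 6.87, 7.21 and 6.99 in control and 7.09, 7.62 and 7.48 on the labelled arrays. The labelled replicate 1 fell inside the control range. The difference of 0.38 (SE 0.14, 95% confidence interval 0.060 to 0.70) did not pass the test (adjusted p = 0.247), and it was 0.53 without that array (adjusted p = 0.0831). KRT7 has 4 probe sets, whose mean gave 0.15. KRT20, the keratin of gut and urothelium, had a mean signal of 3.62 and a difference of 0.030.

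Keratins of stratified epithelia were not called in any of the 18 measured, and none of the 18 had an unadjusted p under 0.05. KRT5 and KRT14, the basal pair, differed by 0.14 (95% confidence interval -0.034 to 0.32) and 0.14 (95% confidence interval -0.038 to 0.32) at control signals of 5.55 and 4.05. KRT10, the keratin of differentiating skin cells, was bright here, at 11.63 in control and 11.64 on the labelled arrays, with a difference of 0.011 (95% confidence interval -0.15 to 0.17). Its sign turned with equal array medians (-0.025). KRT80, which is made in many epithelia, differed by 0.15 (95% confidence interval -0.056 to 0.35), by 0.25 without S153E-RKIP replicate 1 and by 0.081 without replicate 2. The median difference of the 18 was 0.076.

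The keratins of hair gave the third call. KRT33B read 4.75, 4.81 and 4.79 in control and 5.12, 5.11 and 5.21 on the labelled arrays. No labelled array overlapped a control, and KRT33B rose by 0.36 on the log2 scale (SE 0.057, 95% confidence interval 0.23 to 0.50, adjusted p = 0.0189). Its mean signal of 4.97 lay near the median of the 25 silent genes, 4.74. Groups did not overlap for 3 of those 25, 2 higher and 1 lower, and none was called. The call of KRT33B was lost without control replicate 1, 2 or 3 (adjusted p = 0.115, 0.0786 and 0.0979) and without S153E-RKIP replicate 2 or 3 (0.0552 and 0.0582). KRT33A, a close paralog that lies beside it, read 5.20 to 5.25 in control and 5.08 to 5.34 on the labelled arrays, a difference of -0.020 (95% confidence interval -0.19 to 0.15), and near-identical copies may share probes. KRT31 of the hair shaft differed by 0.20 (adjusted p = 0.220). KRT73 and KRT75, of the root sheath and the companion layer of the hair, differed by 0.21 and 0.26 (adjusted p = 0.188 and 0.153). In these genes and in KRT38 (0.12) every labelled array lay above every control, and none of them was called. With KRT33B this was so for 3 of 12 hair shaft and 2 of 7 root sheath keratins. Among all genes it was so for 9.31%, and for 1112 of the 9888 at or below the median signal. All 12 measured keratins of the hair shaft and all 7 of the root sheath lay at or below the median signal, where the median difference of all 9888 genes was 0.053. The median was 0.11 for the hair shaft and 0.075 for the root sheath. KRT23 and KRT222, outside these classes, differed by 0.19 and 0.073 and were not called.

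CLDN1, a core claudin of epithelial barriers, read 7.42, 7.66 and 7.53 in control and 8.70, 8.77 and 8.81 on the labelled arrays. The groups stood far apart, with a difference of 1.22 (SE 0.073, 95% confidence interval 1.05 to 1.39, limma adjusted p = 1.46e-04). Its second probe set read 6.17, 6.27 and 6.52 in control and 7.22, 7.01 and 7.22 on the labelled arrays. That difference was 0.83 (SE 0.10, adjusted p = 0.00681 over all probe sets), so both probe sets were called in the same direction. Left-out arrays moved the difference of the brighter one between 1.16 and 1.28, with the largest adjusted p at 0.00411.

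The 3 claudins that define claudin-low tumours were not called, and 1 of them, CLDN4, had an unadjusted p under 0.05. CLDN4 read 7.08, 7.20 and 6.95 in control and 6.71, 6.98 and 6.79 on the labelled arrays. The groups overlapped, and CLDN4 differed by -0.25, with SE 0.091 (95% confidence interval -0.46 to -0.041, adjusted p = 0.246). CLDN7 read 7.94, 8.17 and 8.02 in control and 8.02, 8.40 and 8.20 on the labelled arrays, with a difference of 0.16 (95% confidence interval -0.073 to 0.40). It was 0.25 without S153E-RKIP replicate 1 and 0.066 without replicate 2. CLDN3, which lies beside CLDN4 in the genome, differed by 0.035 (95% confidence interval -0.11 to 0.18), a sign that turned with equal array medians (-0.0011). Its dimmer probe set read 4.57, 4.66 and 4.51 in control and 4.77, 4.89 and 4.70 on the labelled arrays. These groups did not overlap, and the difference of 0.21 was not called (adjusted p = 0.291 over all probe sets). Within each array CLDN1 minus CLDN4 was higher on the labelled arrays by 1.47, CLDN1 minus CLDN7 by 1.06 and CLDN1 minus CLDN12 by 1.32. Each had no overlap (exact permutation p = 0.1 each, 0.114 adjusted over the 8 pairs). The gap of CLDN1 between the groups was wider than each partner's full range, so non-overlap followed from CLDN1 itself. The same holds for KRT33B minus KRT33A, higher by 0.38. CLDN7 minus CLDN4 was higher by 0.41 without overlap (exact permutation p = 0.1).

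Of the 6 channel-forming claudins none was called or had an unadjusted p under 0.05. Their differences ran from 0.028 for CLDN16, which lets magnesium pass in the kidney, to 0.090 for CLDN10, with CLDN2 at 0.030 and CLDN15 at 0.071. CLDN12, a claudin without the usual PDZ-binding end, read 10.07, 10.04 and 10.01 in control and 10.02, 9.84 and 9.95 on the labelled arrays, a difference of -0.10 (95% confidence interval -0.25 to 0.044). CLDN11, known from myelin and testis, read 6.25, 6.26 and 6.37 in control and 6.52, 6.47 and 6.48 on the labelled arrays. Its groups did not overlap, but the difference of 0.19 was not called (adjusted p = 0.178). CLDN6, an embryonic claudin, and CLDN19, of kidney and retina, had differences of -0.044 and 0.058.

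**Figure D2:**
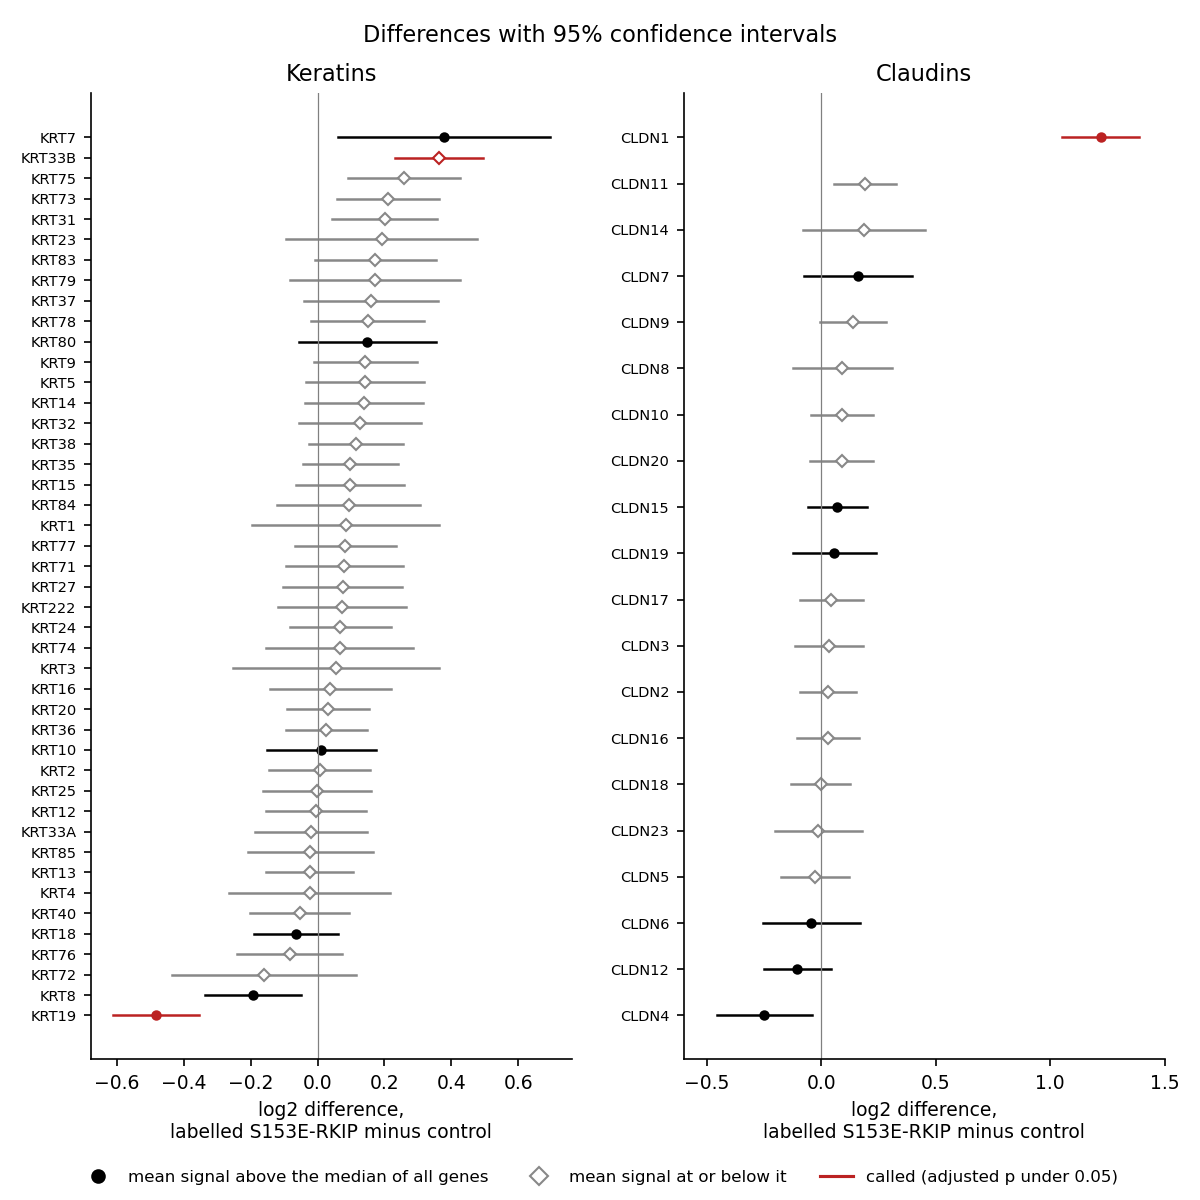
The log2 difference (labelled S153E-RKIP minus control) of each of the 44 keratins and 20 claudins is plotted with its 95% confidence interval from limma, and open diamonds mark members at or below the median signal of all genes. CLDN1 at 1.22, KRT33B at 0.36 and KRT19 at -0.48 are the called members.

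Taken as families, 32 of 44 keratins and 14 of 20 claudins had a difference above 0, together 71.9% of the members beside 53.6% of all genes. The median difference was 0.078 for keratins, 0.050 for claudins and 0.010 for all genes. The share differed with signal. At or below the median signal 68.9% of the 9888 genes and 76.5% of the 51 members had a difference above 0. Above it the shares were 38.4% of genes and 53.8% of the 13 members. The share of members was thus the higher in both parts, and what lies behind it was not tested. When the trend of the difference with signal was removed by loess, 39 of 64 members were above 0. The medians were then 0.027 for keratins and 0.017 for claudins, beside 2.7e-04 for all genes. With that trend removed the calls were again CLDN1, KRT19 and KRT33B. Groups did not overlap for 9 members, or 14.1% beside 20.1% of all genes: 7 were higher (9.31% of all genes) and 2 lower (10.8% of all genes), and an unadjusted p under 0.05 was reached by 10 members beside 15.7% of all genes.

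**Figure D3:**
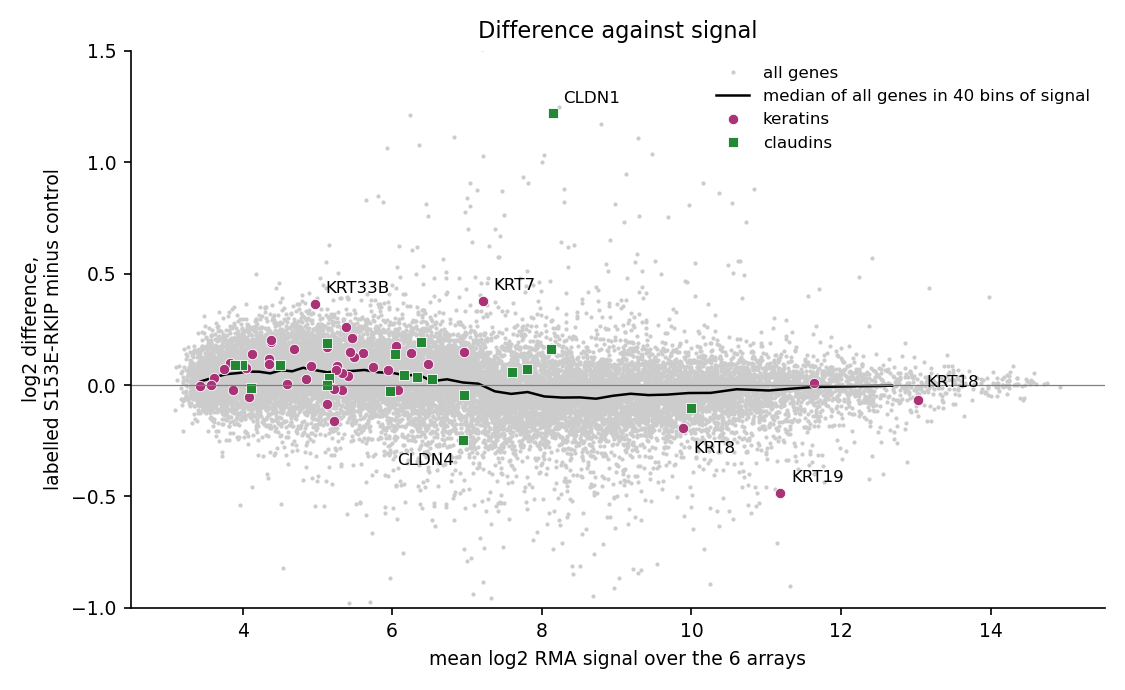
Each gene's log2 difference (labelled S153E-RKIP minus control) is plotted against its mean log2 RMA signal, grey for all genes (40 lie outside the plotted range), with keratins as circles, claudins as squares and a black line for the median of all genes in 40 bins of signal. Most members sit in the dim range where the line runs above 0, and CLDN1 and KRT19 stand clear of the other members.

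Keratin genes lie in 2 clusters, type I mostly on chromosome 17 and type II with KRT18 on chromosome 12, so the genes beside the called members were read from RefSeq (GRCh38). The 3 protein-coding genes on either side of KRT19 are KRT36, KRT13, KRT15, KRT9, KRT14 and KRT16, and none was called, with differences from -0.023 to 0.14. Around CLDN1, on chromosome 3, P3H2, CLDN16, TMEM207, IL1RAP and GMNC differed by -0.0035 to 0.19, none called. Next to KRT33B, KRT33A, KRT31, KRT37 and KRTAP17-1 differed by -0.020 to 0.20, none called.

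Of the partners of these families, no junction or filament gene was called. Desmosome and keratin linker genes tie keratin filaments to the cell edge. Of 19 measured 0 were called by limma, with a median difference of 0.031. An unadjusted p under 0.05 was reached by 5 of them (15.7% of all genes), 4 lower and 1 higher. The largest difference was that of PKP2, a desmosome gene, at -0.37 (SE 0.11, adjusted p = 0.155). PLEC, which encodes the linker plectin, differed by -0.28 (SE 0.070, adjusted p = 0.110), DSP, the desmosomal anchor of keratins, by -0.16 (adjusted p = 0.306), and JUP, plakoglobin, by 0.28 (95% confidence interval -0.25 to 0.81). The difference of JUP was 0.56 without S153E-RKIP replicate 1 and 0.071 without replicate 2. PLEC was called with only genes above the median signal and with a variance trend and robust estimation together. All labelled arrays lay below all controls for PLEC, PKP2 and DSP, while JUP overlapped. Of the 19, groups did not overlap for 4, all lower, or 21.1% beside 20.1% of all genes (10.8% lower).

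Tight junction partners are the other proteins of the seal. None of 20 measured was called by limma, 6 had an unadjusted p under 0.05 (15.7% of all genes), 4 of them lower and 2 higher, and the median difference was -0.031. OCLN, which encodes occludin, read 9.41, 9.55 and 9.39 in control and 9.07, 9.22 and 9.25 on the labelled arrays, a difference of -0.27 (SE 0.073, adjusted p = 0.138). TJP1, the scaffold ZO-1 that claudins bind, read 10.91, 10.91 and 10.96 in control and 10.64, 10.69 and 10.78 on the labelled arrays, a difference of -0.22 (SE 0.060, adjusted p = 0.131). PALS1, a polarity scaffold, differed by -0.25 (SE 0.064, adjusted p = 0.110). In these 3 genes every labelled array lay below every control, as in 10.8% of all genes. Of the 20 partners, groups did not overlap for 7, 4 lower and 3 higher. That is 35% beside 20.1% of all genes and 25.9% of those above the median signal. TJP1 was called with a variance trend and robust estimation together (adjusted p = 0.0327), and PALS1 was called under that setting, among only genes above the median signal, and when its probe sets were averaged. The 2 higher genes were CGNL1, which encodes paracingulin, and ILDR1, of tricellular junctions, with differences of 0.25 and 0.17 (adjusted p = 0.251 and 0.239). Their labelled arrays lay above all controls, as in 9.31% of all genes.

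Of 15 other intermediate filament genes none was called by limma, 1 had an unadjusted p under 0.05 (LMNA, a lamin gene, -0.23, adjusted p = 0.118) beside 15.7% of all genes, and the median was -0.0029. VIM differed by -0.057 (95% confidence interval -0.18 to 0.064), and by -0.29 when its 2 probe sets were averaged (adjusted p = 0.133).

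Among 19 epithelial and mesenchymal transcription factors 1 rose and 2 fell, or 15.8% beside 1.9% of all genes, with a median difference of -0.023. The list was chosen with earlier results of these data known, so these shares cannot show an excess. EHF, an ETS factor of epithelia, read 9.94, 10.03 and 9.84 in control and 10.59, 10.92 and 10.88 on the labelled arrays. The groups did not overlap, and it rose by 0.86 (SE 0.097, adjusted p = 0.00375). KLF5, a Kruppel-like factor of basal epithelial cells, fell by 0.39 (SE 0.064, adjusted p = 0.0223), from 8.17 ± 0.031 to 7.78 ± 0.090 (SD, n = 3 each). SNAI2, which encodes the repressor Slug, fell by 0.41 (SE 0.081, adjusted p = 0.0496), from 9.48 ± 0.0077 to 9.07 ± 0.16. The calls of KLF5 and SNAI2 were lost without any 1 of 5 arrays (adjusted p of up to 0.117 without control replicate 3 and 0.205 without control replicate 1), all but S153E-RKIP replicate 1, while EHF stayed called each time.

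**Figure D4:**
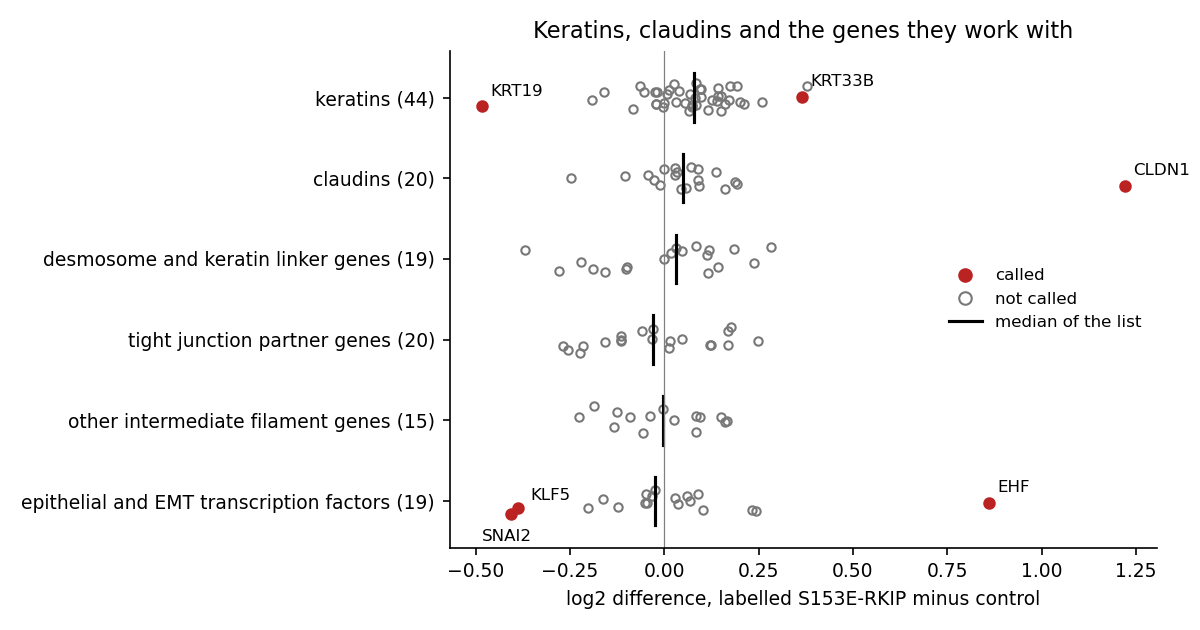
The log2 difference (labelled S153E-RKIP minus control) of every measured gene is plotted for keratins, claudins and 4 lists of genes they work with, with the number of genes in brackets, filled points for called genes and a bar at each median. The called genes are KRT19, KRT33B, CLDN1, EHF, KLF5 and SNAI2, and no junction or other filament gene is among them.

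In all, 91 probe sets belong to members alone, the brightest of each of the 64 included. With each probe set tested by itself 4 of them were called, beside 1.05% of all 54613: both of CLDN1, 1 of KRT19 and 1 of KRT33B. Of the 27 that are not the brightest of their gene 1 was called, that of CLDN1. For 19 members with more than 1 probe set the dimmer ones can therefore be set beside the brightest, and for CLDN4 the dimmer one differed by 0.083 against -0.25. A further 5 probe sets name a member together with another gene, and none was called. The 1 shared by KRT34 and another gene differed by -0.36 (adjusted p = 0.165), and the 3 shared by CLDN22 and WWC2 by -0.31 to -0.14.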

How the data were processed

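The authors deposited 1 log2 value for each probe set on each array. The submitters' processing notes name RMA, which subtracts background, quantile-normalises the arrays and summarises probes. For its version, nothing is given in the sources used here. These log2 values were used as deposited. Of 54675 probe sets, 62 controls were left out, 41097 have 1 gene symbol, 1801 several and 11777 none listed, and 41043 matched the reference by gene identifier with 0 symbols changed. Probe sets not listed are unnamed here.

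Groups came from the titles. The brightest probe set of each of 19775 genes was tested in limma 3.58.1 (R 4.3.3; lmFit, eBayes without trend, two-sided, Benjamini-Hochberg over all genes, called at an adjusted p under 0.05), with 95% intervals from the moderated variance and no filter on dim genes. Simulated data with known changes were used to test the script.

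The members, lists and classes were chosen with earlier results of these data known. Named members are a fixed set of major keratins and claudins, those called, those above the median signal, those at an unadjusted p under 0.05 and the largest differences, and of the other lists the called and defining genes. PALS1, LMNA, CGNL1, ILDR1, PKP2, CD3E, other keratins and claudins and the neighbouring genes were named after their values were seen. Promoters are the RefSeq table's, cut to the bases before the start. Alternatives were other probe set choices, dim-gene filters, normalisations, a variance trend with robust estimation, a replicate block and each array left out, and loess removal of the signal trend, which was chosen after seeing the data. Plots were made in matplotlib 3.10.9.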

Additional observations from a re-analysis of the deposited data

How the results depend on the processing

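CLDN1 kept its direction and its call under all 15 alternatives run on genes (log2 difference 1.02 to 1.28), and EHF did too (0.75 to 0.96). KRT19 lost its call when its probe sets were averaged (-0.18, adjusted p = 0.246) and kept it under the other 14. KRT33B kept its call under 8 of 13 and lost it under 5, each of them a left-out array, and both filters on dim genes removed it. The number of keratins and claudins called was 2 or 3 throughout. Of the partner lists 3 genes were called, and 4 with the mean of all probe sets of a gene (PALS1 added), 6 with only genes above the median signal (PALS1, LMNA and PLEC added), 1 after quantile normalisation again, 7 with a variance trend and robust estimation, and 1 to 3 with an array left out. KLF5 and SNAI2 are those lost. With probe sets that can pair with several transcripts left out, 2 partner genes were called, and SNAI2 was not (limma adjusted p = 0.0502). Of the 15 alternatives, KLF5 kept its call under 8 and SNAI2 under 6. With the replicate number as a block 1 partner gene and 3 members were called. Limma adjusted p-values moved both ways under that block. That of KRT7 went from 0.247 to 0.0643 and that of CLDN7 from 0.478 to 0.267. For KRT19 it went from 0.00437 to 0.0155 and for KRT33B from 0.0189 to 0.044. Same-numbered arrays deviated together with correlations of 0.13, 0.26 and -0.044, and differently numbered ones with -0.27 to 0.13. The labels say nothing of pairing, and for that reason the numbers were not taken as pairs. Among members not called, the sign turned for CLDN3 with equal array medians (-0.0011) and after loess removal of the signal trend (-6.5e-04), and for KRT10 with equal array medians (-0.025). With an array left out KRT10 ran from -0.051 to 0.063, CLDN3 from -8.3e-04 to 0.071 and CLDN6 from -0.15 to 0.017. The cause was not tested. Over all genes 376 were called, 124 to 303 with an array left out and 600 with a variance trend and robust estimation.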
